A study of Mus musculus with 24 samples.

Results

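The genes described here are the chemokines, small secreted proteins that guide the movement of leukocytes, and the receptors that read them. They were taken as every gene whose platform symbol begins with Ccl, Cxcl, Ccr or Cxcr and a number, or with Xcl, Xcr or Cx3c. This gave 54 of the 19057 genes with a probe of their own, 36 ligands and 18 receptors, measured by 79 probes. Total RNA of liver and of epididymal white adipose tissue (EWAT, the fat pad beside the epididymis) from male C57BL/6J mice on normal chow was hybridised to Illumina bead arrays. All mice had received gapmers, short antisense strands through which RNase H cuts a matching transcript, by intraperitoneal injection 48 hours earlier, and no uninjected group was measured. Controls carried a control gapmer, and treated mice a gapmer against Sox6, the gene of a SOX family transcription factor. The ages of the mice are not given in the sources used here. Each of the 4 groups held 4 animals, C1 to C4 with the control and S1 to S4 with the SOX6 oligonucleotide, on 8 control and 6 treated arrays in liver and on 5 arrays of each treatment in EWAT. Repeat arrays of an animal were averaged. Levels are normalized log2 intensities of 1 probe per gene, which can be compared between samples but not between genes.

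Chemokines are named by the spacing of their first cysteines, which divides them into CC, CXC, XC and CX3C families, and they act through receptors that couple to inhibitory G proteins. Inflammatory ligands are induced in tissue macrophages, endothelium and stromal cells by cytokines, in many cases through NF-kB, and draw in monocytes, neutrophils, eosinophils or T cells. Homeostatic ligands are made without a stimulus, for example by lymphatic vessels and lymphoid stroma, and position lymphocytes and dendritic cells. In liver, hepatocytes, Kupffer cells and sinusoidal endothelium release chemokines, and in fat the CCL2 and CCR2 axis is known for the recruitment of macrophages.

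Many of these genes lie in clusters. On GRCm38.p6, 14 members were on chromosome 11, 11 on chromosome 9 and 10 on chromosome 5, where both the CXC ligands of neutrophils and those induced by interferon lie. The windows from 250 bases before to 50 after the start of 4 of those chromosome 5 genes are given because the results turn on the pairs they form: Cxcl1 was detected on every array while its close relative Cxcl2 was not detected in either tissue by the rule used here, and Cxcl9 was higher in EWAT while Cxcl10 was detected in liver only. Capitals mark matches to an NF-kB-like motif (GGNNNTTCC), an interferon response motif (GAAANNGAA) or a TATA box (TATAAA), each searched on both strands, with overlapping matches merged. The windows, from RefSeq, run 5′ to 3′ on the strand of the gene, chr5:90890995-90891294 (plus) for Cxcl1, chr5:90903649-90903948 (plus) for Cxcl2, chr5:92328030-92328329 (minus) for Cxcl9 and chr5:92348840-92349139 (minus) for Cxcl10.
Cxcl1: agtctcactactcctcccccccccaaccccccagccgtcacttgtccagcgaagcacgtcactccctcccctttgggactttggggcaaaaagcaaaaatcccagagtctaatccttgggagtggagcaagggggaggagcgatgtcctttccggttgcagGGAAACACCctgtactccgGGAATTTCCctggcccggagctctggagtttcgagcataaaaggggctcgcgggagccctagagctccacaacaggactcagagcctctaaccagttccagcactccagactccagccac
Cxcl2: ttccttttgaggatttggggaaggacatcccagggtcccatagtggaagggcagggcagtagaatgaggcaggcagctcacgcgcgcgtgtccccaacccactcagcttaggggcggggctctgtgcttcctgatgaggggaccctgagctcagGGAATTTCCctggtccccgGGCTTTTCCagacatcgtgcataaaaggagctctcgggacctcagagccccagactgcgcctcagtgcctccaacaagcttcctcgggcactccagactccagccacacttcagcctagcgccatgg
Cxcl9: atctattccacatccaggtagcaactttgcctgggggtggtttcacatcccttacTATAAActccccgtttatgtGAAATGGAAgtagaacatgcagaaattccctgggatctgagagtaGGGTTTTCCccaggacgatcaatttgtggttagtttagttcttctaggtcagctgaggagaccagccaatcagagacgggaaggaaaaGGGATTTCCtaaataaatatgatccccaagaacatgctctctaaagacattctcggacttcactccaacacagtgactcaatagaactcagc
Cxcl10: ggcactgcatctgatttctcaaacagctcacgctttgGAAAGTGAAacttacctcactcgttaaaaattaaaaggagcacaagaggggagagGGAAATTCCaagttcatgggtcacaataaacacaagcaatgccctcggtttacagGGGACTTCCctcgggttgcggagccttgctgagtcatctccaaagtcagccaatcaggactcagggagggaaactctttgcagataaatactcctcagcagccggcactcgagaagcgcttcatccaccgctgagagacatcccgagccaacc
The first bases of the NF-kB-like matches lay at positions -89 and -70 from the start of Cxcl1, at -96 and -77 for Cxcl2, at -130 and -42 for Cxcl9 and at -158 and -103 for Cxcl10. Each of the 4 windows thus held a pair of them, in genes that differed in detection. Cxcl9 and Cxcl10 also held the interferon response motif, at -175 and -213, and Cxcl9 held TATAAA at -195. A window was given for 40 of the 54 members (44 windows). The NF-kB-like motif was found in 15 member windows, 34.1%, and in 18.5% of 32544 background windows of this length. The background held distinct promoter sequences and left out a chromosome on which no member lies. The interferon response motif was found in 18.2% of member windows and 8.53% of background windows, and TATAAA in 27.3% and 13.6%. These shares describe letters in a window, and related genes in a cluster share sequence.

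Across arrays, 32.9% to 36.4% of all probes were detected in liver and 41.5% to 45.9% in EWAT. Hepatocyte markers averaged 12.70 to 12.87 in every liver and adipocyte markers 11.70 to 12.19 in every EWAT sample. Sox6 itself, read by its 1 detected probe of 5, averaged 5.91 ± 0.34 (SD, n = 4) in control and 5.34 ± 0.37 in treated EWAT, with limma adjusted p = 0.847, and 4.98 ± 0.20 against 4.83 ± 0.09 in liver, with limma adjusted p = 0.745, so the arrays did not show the knockdown past the test in either tissue. Some EWAT samples stood apart by genes of the male ducts. Markers of ciliated duct epithelium averaged 8.12 in C3 and 8.03 in S3, against 4.47 to 5.75 in the other 6. Markers of epididymal or deferent duct averaged 9.22 in S2 and 9.18 in S4, 6.14 in S3 and at most 4.92 elsewhere. Ducts thus touched 3 treated samples and 1 control sample, so EWAT results are also given after leaving out S2 with S4, or C3 with S3. In bulk RNA, a change in the number of cells of a type and in the RNA per cell cannot be told apart.

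Chemokine RNA was found more widely in fat than in liver, and the receptors among the members passed the detection rule in fat alone. By the rule of a detection p under 0.05 in at least 3 of 8 animals, 15 members were detected in liver, all of them ligands, and 28 in EWAT, 23 ligands and 5 receptors. The background was 51.6% of all genes in liver and 59.1% in EWAT. In the plot of detection by gene, 14 members were shared, Cxcl10 was detected in liver only and 14 in EWAT only. The other 25 members passed in neither tissue, among them Ccl3, the eosinophil chemokine Ccl26, the neutrophil receptors Cxcr1 and Cxcr2, and the T cell chemokines Ccl17 and Ccl22.

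**Figure D1:**
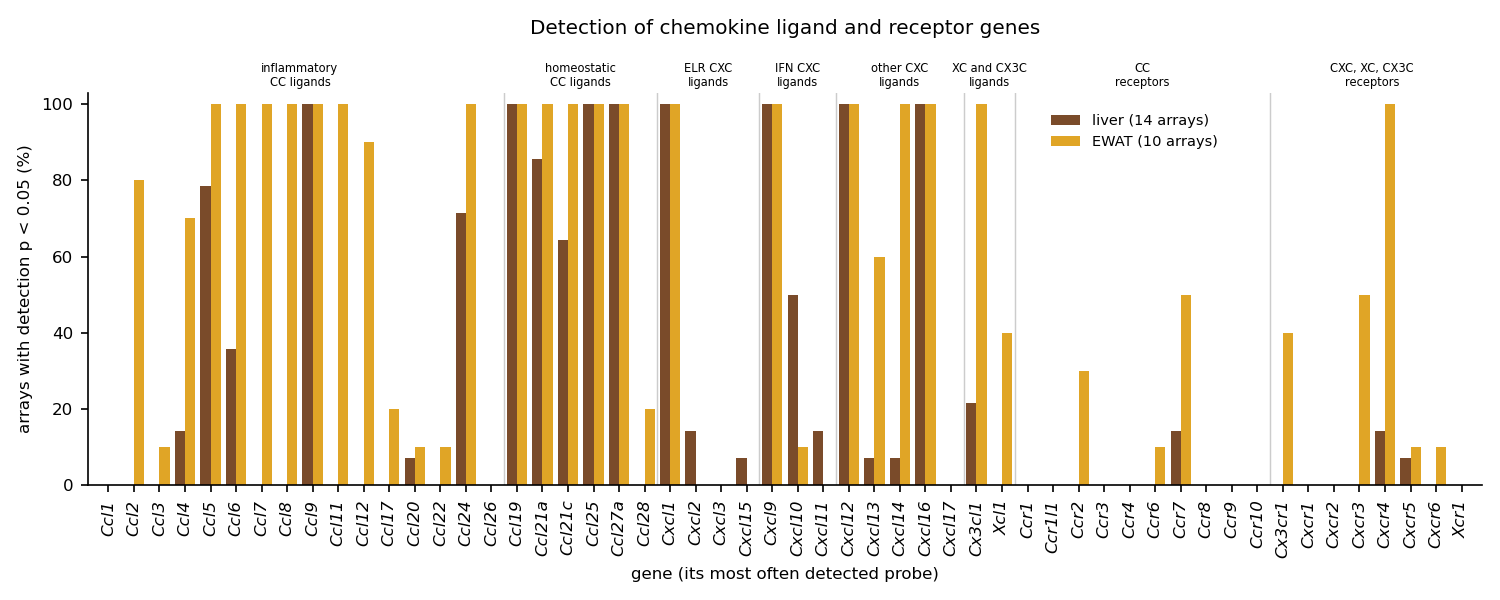
Share of arrays on which each of the 54 genes was detected (detection p under 0.05, the gene's most often detected probe), in liver (14 arrays) and EWAT (10 arrays), ordered by class. Ligands fill the left of the plot, and the 18 receptors on the right are empty in liver except for Ccr7, Cxcr4 and Cxcr5 on 2 arrays or fewer.

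Inflammatory CC ligands made up 6 of the 14 genes detected in EWAT only, with 4 of 16 detected in liver and 10 of 16 in EWAT. Ccl9, Ccl5, Ccl6 and Ccl24 were found in both. Ccl11 (eotaxin, which attracts eosinophils), Ccl7 (a monocyte attractant) and Ccl8 were detected on all 10 EWAT arrays and on none of 14 liver arrays. Ccl12 was detected on 9 EWAT arrays, Ccl2, the main monocyte attractant, on 8 and Ccl4 on 7. Homeostatic CC ligands were the same 5 of 6 in both tissues, Ccl19, Ccl21a, Ccl21c, Ccl25 and Ccl27a. Of 4 ligands with the ELR motif, which act on neutrophils, Cxcl1 alone passed, on all 24 arrays. Of the 3 interferon-induced CXC ligands, Cxcl9 was detected on every array of both tissues, Cxcl10 on 7 of 14 liver arrays and 1 of 10 EWAT arrays, and Cxcl11 on 2 liver arrays.

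Receptors were dim. Cxcr4, the receptor of Cxcl12, was the 1 receptor detected on all 10 EWAT arrays, and it was detected on 2 of 14 liver arrays. Ccr7, which reads Ccl19 and Ccl21, and Cxcr3, which reads Cxcl9, Cxcl10 and Cxcl11, were each detected on 5 EWAT arrays. Cx3cr1, the receptor of Cx3cl1, was detected on 4 and Ccr2, which reads Ccl2, Ccl7 and Ccl12, on 3. For many ligands detected in at least 1 tissue, a known receptor among the members was not detected. Cxcr5 of Cxcl13, Cxcr6 of Cxcl16, Cxcr2 of Cxcl1, Xcr1 of Xcl1 and Ccr3 of Ccl11 and Ccl24 failed the detection rule in both tissues. So did Ccr1 of Ccl9, Ccr9 of Ccl25 and Ccr10 of Ccl27a. Atypical receptors lie outside the symbol rule and are not counted here, and of these Ackr4 read 9.86 to 10.27 in liver. A probe below the detection limit gives an upper bound on the level and not an absence.

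Between the control groups, 13 of the 29 members detected in either tissue were higher in EWAT and 5 were lower at a limma adjusted p under 0.05 (4 animals each). Over all 11923 genes tested, 38.1% were higher in EWAT and 26% lower, with a median difference of 0.12 log2 units against 0.46 for the members. This balance depended on the scaling: with median scaling in place of quantile normalization, the median of all genes moved to -0.17, 10 members were higher and 10 lower, and the genes called went from 4541 higher and 3104 lower to 3428 higher and 4763 lower. Ccl12, Cx3cl1 and Cx3cr1 were no longer called higher by that scaling, and Cx3cr1 turned to -0.42, so no direction is given for it. Ccl4, Ccr2, Cxcr3 and Cxcl12, not called by quantile normalization, were called lower in EWAT by median scaling, at -0.45, -0.51, -0.52 and -1.03.

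**Figure D2:**
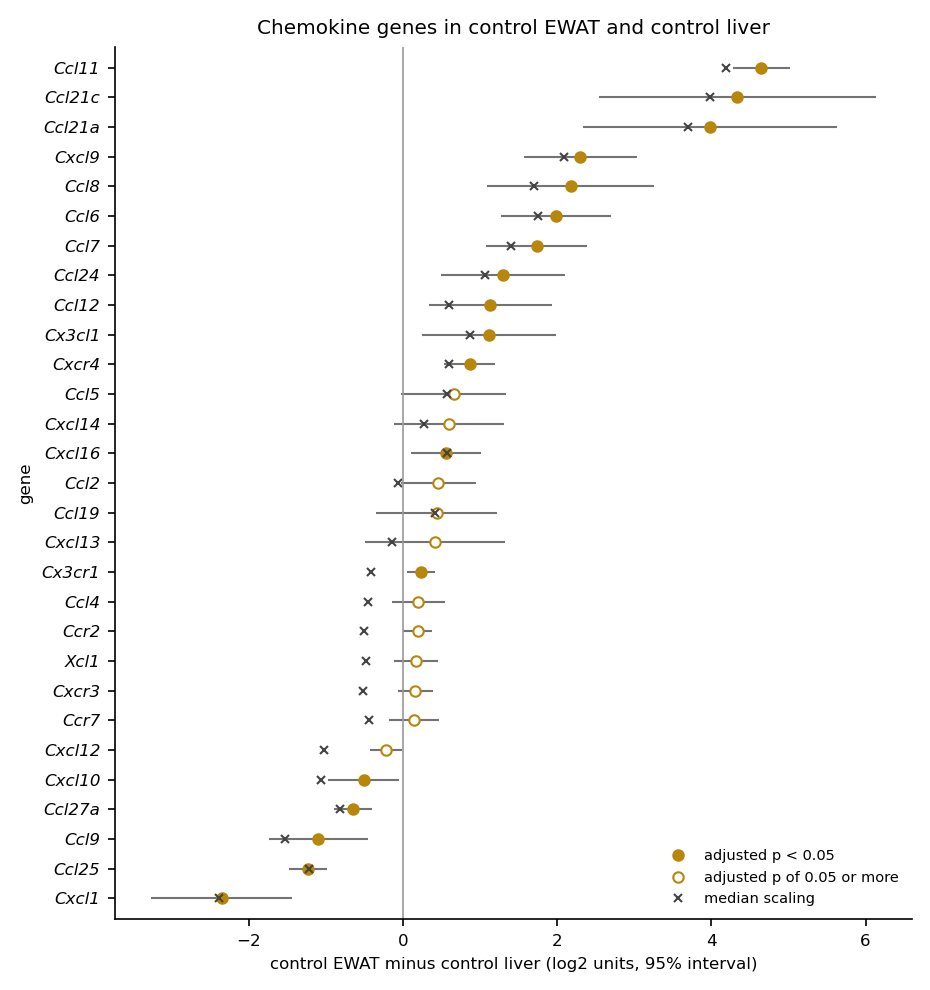
Difference between control EWAT and control liver for the 29 chemokine genes detected in either tissue (log2 units, 95% interval from limma, 4 animals per group), with the value under median scaling as a cross. Ccl11, Ccl21c and Ccl21a lie farthest to the right and Cxcl1 farthest to the left under both scalings.

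Inflammatory CC ligands were higher in EWAT in 6 of the 10 tested, and Ccl9 was lower. Ccl11 read 9.22, 9.66, 8.82 and 9.19 in control EWAT and 4.51 to 4.66 in control liver, where no array detected it. Because the liver probe was not above background, the fitted difference of 4.65 ± 0.17 (SE) is given as a bound, at least 18.0-fold higher in EWAT, with a limma adjusted p of 4.43e-13. The groups were far apart, with no liver near the lowest EWAT sample. By the same kind of bound, Ccl8 was at least 2.90-fold, Ccl7 at least 2.50-fold and Ccl12 at least 1.43-fold higher in EWAT. Ccl6 and Ccl24 passed the detection rule in both tissues and were higher in EWAT by 1.99 and 1.30 log2 units (limma adjusted p = 7.03e-05 and 0.00661). No fold is given, since 3 and 4 of 8 control liver arrays detected them. For Ccl24 the control groups overlapped, with liver C1 at 5.85 above EWAT C4 at 5.49. Ccl9, a macrophage ligand of mice, went the other way, at 10.25 to 10.87 in control liver and 8.46 to 10.21 in control EWAT, a 2.14-fold difference with a limma adjusted p of 0.00472.

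The 2 Ccl21 genes, near-identical copies whose product CCR7-bearing cells follow into lymphatic vessels, were the next largest. Ccl21a read 10.54, 6.84, 11.53 and 9.92 in control EWAT and 6.41, 5.29, 4.96 and 6.23 in control liver. C2 was the low EWAT sample, yet it still exceeded every liver, and the mean difference was 3.98 ± 0.78 for Ccl21a and 4.33 ± 0.85 for Ccl21c (limma adjusted p = 0.000275 and 0.000281). Signals of these copies cannot be told apart with certainty. Lymphatic endothelial markers in EWAT were also lowest in C2, at 6.97 against 7.22 to 8.24 in the other samples, and their part in the level of Ccl21 was not tested. Ccl25, the gut and thymus ligand of CCR9, was lower in EWAT by a factor of 2.36, and Ccl27a by a factor of 1.57, with no overlap of control animals for either.

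Among CXC ligands the tissues split. Cxcl1, the neutrophil attractant, read 8.61, 8.23, 7.95 and 8.23 in control liver and 5.58, 5.59, 5.79 and 6.67 in control EWAT. It was 5.10-fold higher in liver, with a limma adjusted p of 0.000154 and no overlap. Cxcl9, which attracts activated T cells and is induced by interferon gamma, was 4.93-fold higher in EWAT, at 9.53 to 10.50 against 7.11 to 8.70 in liver (limma adjusted p = 2.08e-05). Cxcl10 lay the other way, at least 1.20-fold higher in control liver, with a limma adjusted p of 0.04996, and 13 of the alternatives tried lost this call. Liver C1, at 5.80 against 4.56 to 4.81 in the other controls, carried much of that value, and without C1 the EWAT minus liver difference was -0.26 log2 units with an adjusted p of 0.215. Cxcl16, a membrane-bound ligand that also takes up oxidised lipoprotein, was 1.47-fold higher in EWAT (limma adjusted p = 0.0312), a call lost without C2 (0.58 log2 units, adjusted p = 0.0739) or C3 (0.34, adjusted p = 0.23), and with the mean of its probes (0.26, adjusted p = 0.156). Cxcl12, which retains progenitor cells through CXCR4, differed by -0.22 and did not pass (limma adjusted p = 0.0631), but with median scaling it differed by -1.03 and was called lower in EWAT (limma adjusted p = 1.07e-07). Its receptor Cxcr4 was higher in EWAT, by 0.86 log2 units (limma adjusted p = 0.000115). Since 2 of 8 control liver arrays detected Cxcr4, no fold is given.

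Cx3cl1 (fractalkine, a membrane-bound ligand of CX3CR1) was higher in control EWAT by 1.11 log2 units (limma adjusted p = 0.0262), with no fold given since 3 of 8 control liver arrays detected it. Its EWAT values were 5.94, 5.86, 7.63 and 5.21, with C3, the sample with ciliated duct markers, at the top. Without C3 in both tissues the difference was 0.51 log2 units and the call was lost (limma adjusted p = 0.205), and without C2 it was 1.23 (adjusted p = 0.051). Ccl12 was likewise highest in C3, at 6.93 against 4.66 to 5.79 in the other control EWAT samples, and its call was lost without C3 (0.68, adjusted p = 0.0738) or C1 (1.07, adjusted p = 0.0637). Ccl24 lost its call without C2 (0.84, adjusted p = 0.0822). The part of duct cells in these levels was not tested. Ccl2, Ccl4, Ccl5, Ccl19, Ccr2, Ccr7, Cxcl12, Cxcl13, Cxcl14, Cxcr3 and Xcl1 did not pass between the tissues with quantile normalization.

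In liver, none of the 15 members passed the test between SOX6 and control oligonucleotide, against 0.214% of the 9835 genes tested. The smallest limma adjusted p among them was 0.281. At an unadjusted p under 0.05 there were 2 members (Cx3cl1 and Ccl27a), where 9.35% of all genes reached that level. The same 2 were the members whose animals did not overlap between treatments, where 5.51% of all genes had none. Cx3cl1 met the detection rule through control animals alone, so its lower treated values are not independent of that rule. The median difference was 0.08 log2 units over the members and 0.0036 over all genes, with 11 of 15 members and 50.8% of all genes above 0.

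**Figure D3:**
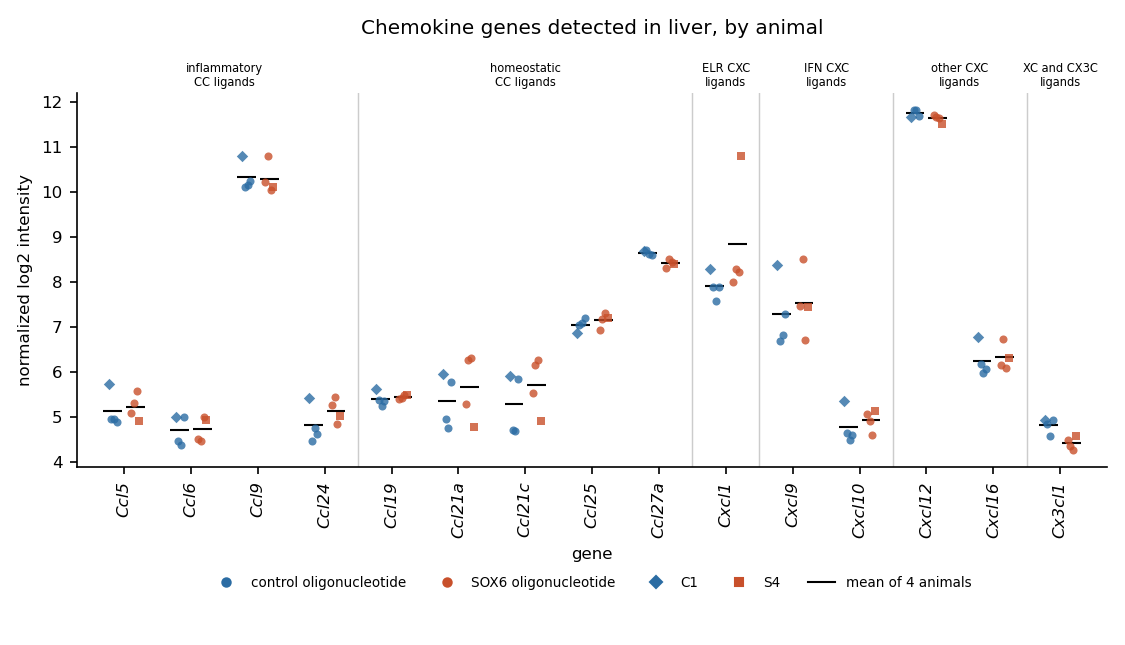
Normalized log2 intensity of the 15 chemokine genes detected in liver, 1 point per animal and a line at the mean of 4 animals per treatment, with C1 as a diamond and S4 as a square. Treated and control points overlap for every gene except Ccl27a and Cx3cl1, and S4 stands alone for Cxcl1 at 10.81.

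Cx3cl1 read 4.95, 4.85, 4.59 and 4.94 in control livers and 4.50, 4.36, 4.28 and 4.58 in treated livers. All treated animals lay below all controls, by a narrow margin between C3 and S4. The difference was -0.40 ± 0.12 (SE), with a limma adjusted p of 0.281, and it was -0.73 without the background model and -0.86 on the authors' processed values (adjusted p = 0.312 and 0.319). These are levels at the edge of detection, since 3 of 8 control arrays and none of 6 treated arrays detected the probe, so no fold is given. The gene was thus kept for testing by its control animals alone, and the lack of overlap is not independent of that filter. Within the 4 chips, the array slides that each held both treatments, the differences were -0.53, -0.38, -0.07 and -0.43. In both tissues a chip held few animals of a treatment, and some animals were on more than 1 chip. The chip values are thus not independent replicates.

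Ccl27a, a ligand best known from skin, where it guides T cells through CCR10, read 8.69, 8.71, 8.63 and 8.60 in controls and 8.32, 8.52, 8.44 and 8.39 in treated livers. The groups did not overlap, and the difference was -0.24 ± 0.08 (limma adjusted p = 0.379). Within the chips it was -0.20, -0.32, 0.01 and -0.36. Another detected probe of the gene differed by -0.02, so the 2 probes did not read alike, and their mean gave -0.13. Over the 8 livers the genes whose levels followed Ccl27a most closely were Itsn2 (Pearson r = 0.977), Sugct (0.971) and Ptprk (0.957), and for Cx3cl1 they were Dnajc12 (0.987), Rpl27 (0.981) and Pigyl (0.974), the highest of 9834 genes searched and a description of these 8 animals only.

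Cxcl1 had the largest liver difference, 0.92 ± 0.50, and it came from 1 animal. Controls read 8.29, 7.89, 7.59 and 7.88 and treated livers 8.01, 8.29, 8.23 and 10.81. The high value was S4, whose repeat arrays read 10.83 and 10.78, and the other treated livers lay within the control range. Without S4 the difference was 0.26, and over all 8 animals the limma adjusted p was 0.627. Cxcl2 and Cxcl3, which share its receptor CXCR2, failed the detection rule in liver, with Cxcl2 detected on 2 of 6 treated and 0 of 8 control arrays and Cxcl3 on none. The 4 detected neutrophil markers averaged 4.61 in S4, the lowest of the treated livers, and the platelet, macrophage and Kupffer cell averages of S4 lay within the range of the other livers. Some genes of the lists outside the symbol rule are named here after their values were seen. S4 was the highest liver for the inflammatory cytokine gene Il1b, at 6.74 against 4.85 to 6.04. It was also highest for Rgs1, Csf3 (5.49), Nfkbiz (7.15), Tnfrsf1b (6.44) and Irf7 (6.78). Of the upstream cytokine and NF-kB genes, S4 was the lowest liver for Ifngr1 (5.96). It was not the highest for Rela, Irf1, Myd88, Nfkbia, Tnfrsf1a, Tlr2, Csf1, Tnfaip3, Tlr4 or Il1r1.

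The other liver ligands overlapped between treatments. Cxcl12 differed by -0.11 ± 0.07 on the probe used and by -0.41 and -0.32 on its other detected probes (limma adjusted p = 0.668 for the first). Ccl9 differed by -0.03 ± 0.18. Ccl24 was at 0.33 ± 0.20, Ccl21c at 0.42 ± 0.35, Ccl21a at 0.30 ± 0.37, Ccl25 at 0.09 ± 0.12 and Cxcl10 at 0.15 ± 0.19, none with a limma adjusted p under 0.677. The remaining members, Cxcl9, Ccl5, Cxcl16, Ccl19 and Ccl6, lay between 0.02 and 0.23. Much of the spread came from C1, which was the highest of 8 livers for 6 of 15 members (Ccl19, Ccl5, Ccl6, Cx3cl1, Cxcl10 and Cxcl16). Macrophage markers averaged 7.67 in C1 against 6.46 to 7.24 in the other livers, and Kupffer cell markers 6.84 against 5.63 to 6.23. C1 was the highest liver for 11 of 21 marker lists, among them also those of monocytes, neutrophils, B cells, endothelium, fibroblasts, stellate cells and cholangiocytes. The part of any of these cell types in the ligand levels of C1 was not tested.

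In EWAT, none of the 28 members passed, and no gene of 11265 did (0% called). The smallest limma adjusted p of a member was 0.847. At an unadjusted p under 0.05 there were 3 of 28 members (Ccl11, Ccl4 and Cxcl14), where 4.97% of all genes reached that level. No member had groups without overlap, against 2.78% of all genes. Ccl4 met the detection rule only with its treated animals counted, so its difference is not independent of that rule. The median difference was 0.27 log2 units over the members and -0.02 over all genes, and 22 of 28 members against 45.2% of all genes lay above 0. Members share cell sources and samples, so this count is a description.

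**Figure D4:**
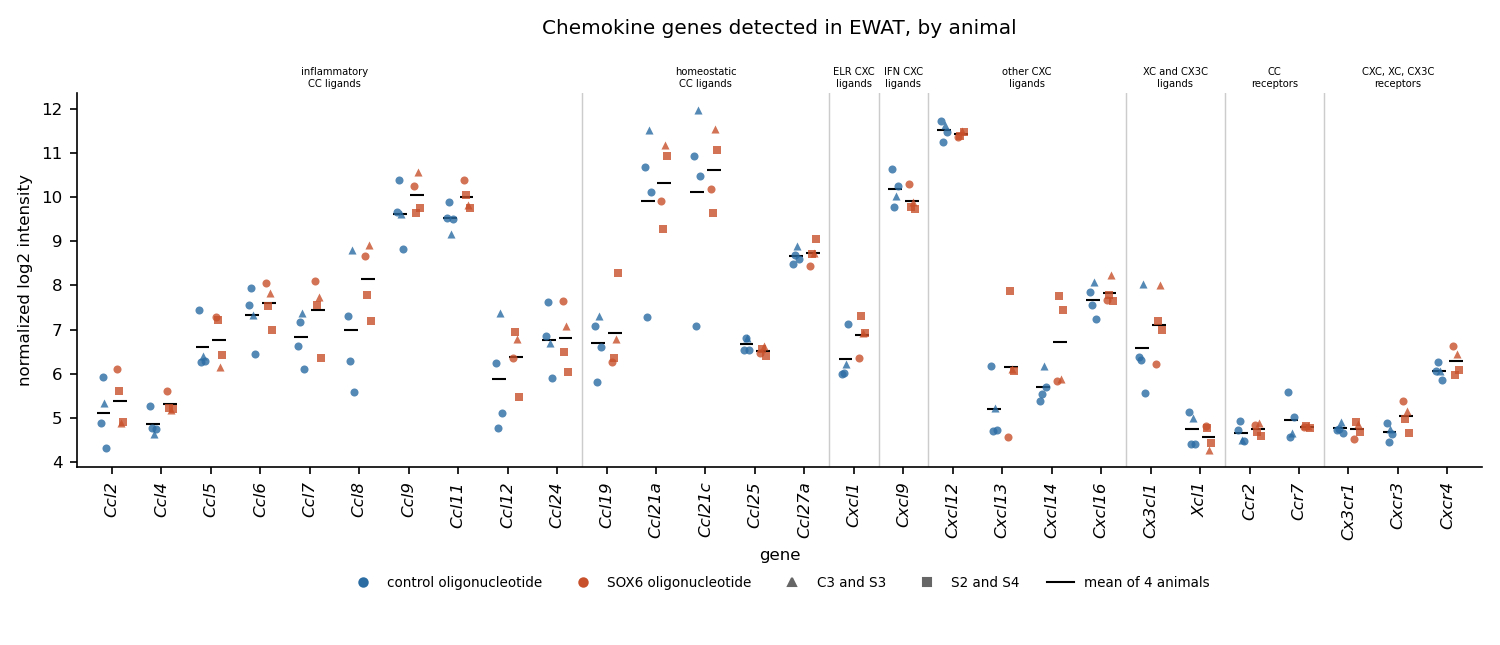
Normalized log2 intensity of the 28 chemokine genes detected in EWAT, 1 point per animal and a line at the mean of 4 animals per treatment, with C3 and S3 as triangles and S2 and S4 as squares. Squares stand apart for Cxcl14, and triangles are highest for Cx3cl1, Ccl8, Cxcl16, Ccl21a and Ccl21c. For Ccl21a and Ccl21c 1 control point, C2, lies far below the rest.

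All 10 inflammatory CC ligands had a higher mean in treated EWAT, with a median difference of 0.45, and none passed the adjusted test. Ccl11 read 9.52, 9.89, 9.15 and 9.49 in controls and 10.38, 10.05, 9.81 and 9.76 in treated animals. Only control C2 reached into the treated range, and the difference was 0.49 ± 0.18 (limma adjusted p = 0.847), with 0.38 on its other probe. It was 0.58 without S2 and S4 and 0.43 without C3 and S3, and within the chips 0.80, -0.08, 0.74 and 0.61. As in liver, the chip values rest on few animals each, and S1 was on more than 1 chip. Ccl4, a ligand made by activated macrophages and T cells, read 5.27, 4.77, 4.63 and 4.74 in controls and 5.62, 5.23, 5.17 and 5.20 in treated EWAT. The treated values exceeded all controls except C1, and 2 of 5 control arrays and 5 of 5 treated arrays detected it. Ccl4 thus met the detection rule only with its treated animals counted. Its difference was 0.45 ± 0.18, 0.52 without S2 and S4, and 0.41 without C3 and S3.

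Ccl8 had the largest EWAT difference. It read 7.30, 6.28, 8.80 and 5.59 in controls and 8.67, 7.77, 8.92 and 7.19 in treated animals. The groups overlapped, with C3 above all treated animals but S3, and C1 above S4. The difference was 1.15 ± 0.65 with all animals (95% interval -0.32 to 2.62), 1.80 without S2 and S4 (-0.019 to 3.62) and 1.51 without C3 and S3 (0.37 to 2.64), and it was 0.68 without C4. Ccl7, at 6.64, 7.18, 7.37 and 6.10 in controls and 8.09, 7.57, 7.74 and 6.35 in treated animals, differed by 0.62 ± 0.40 with all animals (95% interval -0.27 to 1.51), by 1.10 without S2 and S4 (0.27 to 1.93) and by 0.71 without C3 and S3 (-0.34 to 1.76), and by 0.37 without C4. S4 was the treated sample that lay among the controls. Ccl12 was at 0.52 ± 0.55 and Ccl9 at 0.44 ± 0.32, and Ccl6 was at 0.28 ± 0.33, Ccl2 at 0.27 ± 0.38, Ccl5 at 0.17 ± 0.34 and Ccl24 at 0.04 ± 0.42. Ccl24 turned to -0.07 without C3 and S3. After either pair of samples was left out no member passed the adjusted test, and 4 members without S2 and S4 and 3 without C3 and S3 had an unadjusted p under 0.05, beside 2.23% and 9.85% of all genes.

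Macrophage markers were among the lists that varied with these ligands over the samples. The 11 detected macrophage markers, of 12 with a probe, averaged 8.76, 8.84, 8.48 and 7.64 in controls and, over the treated samples, between 8.33 in S4 and 9.28 in S1, with all 11 markers above 0 in the treatment difference and none past the adjusted test. C4 was lowest for the macrophage markers and also for 10 of 28 members, among them Ccl2, Ccl6, Ccl7, Ccl8, Ccl9 and Ccl24. S1 was highest for the markers and for 8 members, among them Ccl2, Ccl4, Ccl6, Ccl7, Ccl11 and Ccl24. It was also the highest sample for the marker lists of neutrophils, Kupffer cells and liver sinusoidal endothelium. C4 was also the lowest sample for 13 of 21 marker lists, among them those of monocytes, T cells, B cells, dendritic cells, mast cells, fibroblasts and mesothelium, and the highest for adipocyte and endothelial markers. Averaged over the 10 inflammatory ligands, the levels were 7.14, 7.10, 7.27 and 6.28 in controls and 7.85, 7.40, 7.49 and 6.81 in treated EWAT. Without C4, 8 of the 10 ligands lay above 0 and their median fell to 0.22, a shift of more than 1.5 times, and without S1 it was 0.35. The part of macrophages or of any other cell type in these differences was not tested.

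**Figure D5:**
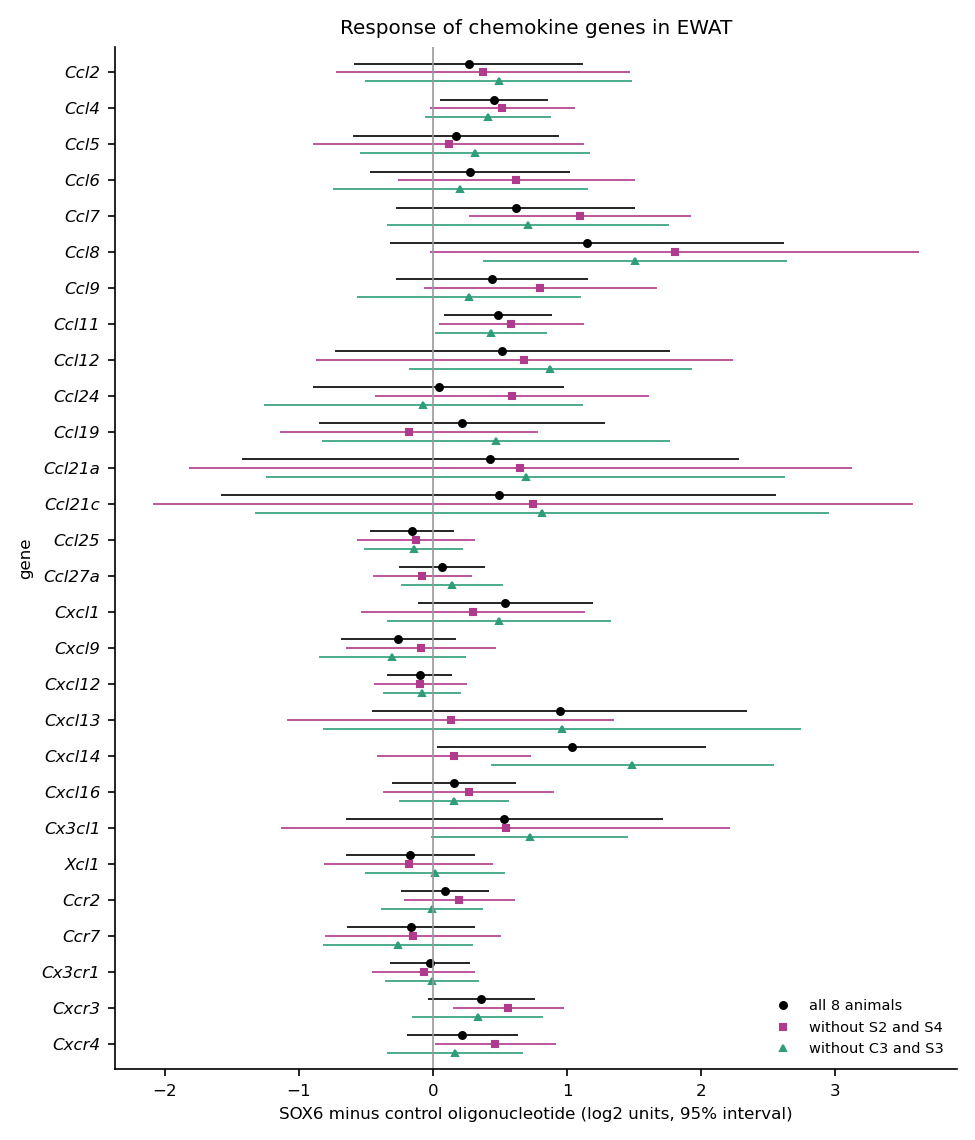
Difference between SOX6 and control oligonucleotide in EWAT for the 28 chemokine genes (log2 units, 95% interval from limma), for all 8 animals (circles) and after leaving out S2 with S4 (squares) or C3 with S3 (triangles). The value of Cxcl14 falls to 0.16 without S2 and S4, and those of Ccl7 and Ccl8 move to the right.

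Several CXC ligand differences in EWAT changed when samples with duct genes were left out. Cxcl14, an epithelial and fat-tissue ligand whose receptor is debated, read 5.38, 5.54, 6.16 and 5.69 in controls and 5.83, 7.76, 5.88 and 7.44 in treated animals. S2 and S4, the samples with epididymal or deferent duct markers, were each more than 1 log2 unit above the other 6, on this probe and on the other, where they read 6.87 and 6.32 against 4.54 to 4.96. Cxcl14 was the 1 member with that pattern. Its difference of 1.03 ± 0.45 fell to 0.16 without S2 and S4, with a 95% interval from -0.42 to 0.73. Within the chips it was 0.20, 0.34, 1.38 and 1.28. Cxcl13, the B cell attractant, was highest in S2 at 7.87 and lowest in S1 at 4.56, and its difference of 0.95 ± 0.62 became 0.13 without S2 and S4 and -0.58 without all 4 samples with duct genes. Cxcl1 read 5.98, 6.01, 6.23 and 7.12 in controls and 6.36, 7.30, 6.92 and 6.93 in treated EWAT, a difference of 0.54 ± 0.29 that was -0.02 without the 4 samples. Cxcl9, at -0.26 ± 0.19, turned to 0.06 and Xcl1, at -0.17 ± 0.21, to 0.15 when the 4 were left out, with 3 controls against 1 treated animal remaining. Cxcl12 (-0.10 ± 0.11) and Cxcl16 (0.15 ± 0.21) kept their sign in those fits on the probes used. With all animals, the other detected probes differed by 0.34 and 0.003 for Cxcl12 and by -0.05 for Cxcl16, so their probes did not share a sign.

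Cx3cl1 was highest in the EWAT samples with duct markers. C3 and S3 read 8.03 and 8.01, S2 and S4 7.18 and 6.99, and the 4 samples low in duct markers 5.56 to 6.39. Every sample with duct genes, control or treated, lay above every sample without. The treatment difference was 0.53 ± 0.52 with all animals, 0.54 when S2 and S4 were left out, 0.72 when C3 and S3 were, and 0.13 when all 4 were.

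Among homeostatic CC ligands the Ccl21 genes had the widest spread between animals. Ccl21c read 10.93, 7.08, 11.98 and 10.48 in controls and 10.18, 9.65, 11.54 and 11.06 in treated EWAT. C2 was the lowest sample on both Ccl21 genes, and on Ccl21a it read 7.28 where the next lowest, S2, read 9.27. C3 and S3, the samples with ciliated duct markers, were the highest on both genes. These samples were also the highest for lymphatic endothelial markers, at 7.98 in C3 and 8.24 in S3, and C2 was the lowest at 6.97. The part of either cell type in these levels was not tested. The difference was 0.49 ± 0.92 for Ccl21c and 0.43 ± 0.82 for Ccl21a, and without C2 it was -0.52 and -0.45. Ccl19, which shares CCR7, was highest in S4 at 8.29 against 5.82 to 7.30 in the others, and its difference of 0.22 ± 0.47 turned to -0.18 without S2 and S4. Ccl25 was at -0.16 ± 0.14 and Ccl27a at 0.06 ± 0.14.

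No receptor passed between treatments. Cxcr3 was detected on 1 of 5 control arrays and 4 of 5 treated arrays. It read 4.88, 4.45, 4.75 and 4.64 in controls and 5.38, 4.97, 5.16 and 4.67 in treated EWAT. Cxcr3 thus met the detection rule only with its treated animals counted, and its difference is not independent of that rule. Its difference was 0.36 ± 0.18 with a limma adjusted p of 0.847 (95% interval -0.036 to 0.76), 0.56 without S2 and S4 (0.15 to 0.97) and 0.33 without C3 and S3 (-0.16 to 0.82). S4 was again the treated sample within the control range. Cxcr4 was at 0.22 ± 0.18, Ccr2 at 0.09 ± 0.15, Cx3cr1 at -0.02 ± 0.13 and Ccr7 at -0.16 ± 0.21. Control C1 was the highest sample for 5 members, Ccr7, Ccl5, Cxcl9, Cxcl12 and Xcl1, and for 4 of 21 marker lists. These were the NK cell markers (6.92 against 6.43 to 6.72) and B cell markers (6.02 against 5.14 to 5.81), with 3 of 7 and 2 of 6 markers detected. The others were the dendritic cell markers (6.875 against 6.384 to 6.829) and hepatocyte markers (8.20 against 7.78 to 8.11), with 5 of 7 and 3 of 10 detected. The T cell markers, 5 of 9 detected, averaged 6.005 in C1, within the 5.88 to 6.29 of the other samples. The part of lymphocytes or of any other cell type was not tested. Eosinophil markers, of interest beside Ccl11, were not detected in either tissue (0 of 3 with a probe).

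The response itself did not differ between liver and EWAT past the test for any of the 29 members, with 0.0168% of all genes called. The smallest limma adjusted p of a member was 0.724. The members with an unadjusted p under 0.05 were Cxcl14, whose response was 1.25 ± 0.48 higher in EWAT, and Ccl11, at 0.55 ± 0.25. Of all genes, 6.21% reached that level, a share close to that of the members. No liver array detected Ccl11, and 1 of 14 detected Cxcl14. The EWAT difference of Cxcl14 fell to 0.16 without S2 and S4.

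Genes around the chemokine system, taken from lists outside the symbol rule, did not pass either. Rarres2 and Dpp4 are named here after their values were seen. Of atypical receptors and relatives such as the scavenging receptor Ackr4 and the chemoattractant chemerin (Rarres2), 7 were tested in liver and 9 in EWAT with 0 called, at a median difference of 0.12 in liver and 0.10 in EWAT. Rarres2 was higher in every treated liver than in every control liver, at 0.22 ± 0.07, with a limma adjusted p of 0.311. Of receptor signalling and chemokine processing genes, 19 were tested in liver and 28 in EWAT with 0 called, at medians of -0.04 and 0.08. Dpp4, the protease that trims the ends of several chemokines, read 9.92 to 10.04 in treated and 10.18 to 10.47 in control livers. Its difference was -0.32 ± 0.08 without overlap and with a limma adjusted p of 0.188. Beside Rarres2 and Dpp4, 5.51% of all genes tested in liver had groups without overlap. Of upstream cytokine and NF-kB genes, 16 were tested in liver and 18 in EWAT with 0 called, at medians of 0.14 and 0.01.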

How the data were processed

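RNA of liver and EWAT was measured on 24 arrays, 4 chips of 6. GenomeStudio was used, per the labels, in a version not given in the sources used here. As its values below 0 show, the deposited intensity of a probe had its array's background subtracted and was not normalized between arrays, and each has a deposited detection p-value against its array's negative controls. The authors' log2 values were quantile normalized over both tissues, as the values show (Spearman correlation of 1 with the signals within an array), and served as an alternative.

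Signals of a tissue were background corrected from the detection p-values with an offset of 16, quantile normalized and put on a log2 scale (neqc, limma 3.58.1 in R 4.3.3). Both tissues were normalized together for the tissue contrast and the interaction. Repeat arrays of an animal were averaged, so n is 4 animals per group. A probe was detected at p under 0.05 on a share of at least 0.5 of an animal's arrays in at least 3 of 8 animals, and where several probes of a gene were detected, the brightest on average stood for it. Tests were limma's moderated two-sided tests with an intensity trend, adjusted by Benjamini-Hochberg over all detected genes at 0.05. A bound on a fold used the lowest detected signal of each array. The number of arrays limits the precision. The labels do not say whether an animal number stands for the same mouse in both tissues, and the p-values measure the spread between these animals. Scripts were tested on simulated data.

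Genes were named by rule: any past the adjusted test in a treatment comparison, in each tissue the lowest p values, at most 6 a direction, those whose groups do not overlap, up to 10 per direction between tissues, known ligand and receptor pairs, and those that change sign or stand apart with the duct samples. Members, gene lists, marker lists and tests were chosen with earlier results of these data known. Alternatives were other normalizations, filters, probe choices and variance models, unaveraged arrays, a replicate block, and leaving out animals. Gene positions and promoter windows are from RefSeq on GRCm38.p6.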

Additional observations from a re-analysis of the deposited data

Results flagged for a closer look

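In 4 of the 86 groups of 4 animals that were examined (each member in each treatment and tissue), 1 animal lay so far from the other 3 that Dixon's test at the 95% level set it apart. Chance gives about 1 in 20 such groups (0.05). Cxcl1 read 10.81 in liver S4, against 8.01 to 8.29 in the other treated livers, and both repeat arrays of S4, on chip 2, were high. Ccl5, a ligand that attracts T cells and NK cells, read 5.745 in liver C1 against 4.901 to 4.974 in the other control livers. In EWAT it read 7.443 in C1 against 6.258 to 6.402 in the other control samples, so the same label was high in both tissues. Ccl4 read 5.618 in EWAT S1 against 5.167 to 5.234 in the other treated samples, with repeat arrays at 5.82 and 5.41. Explanations for these values were not tested.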

How the results depend on the processing

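No member was called in liver, in EWAT or in the interaction under any alternative run, and the lowest limma adjusted p over them was 0.209 in liver and 0.426 in EWAT. The tissue counts were within 1.5 times of 13 higher and 5 lower except for 10 lower under median scaling, and leaving out 1 animal gave 9 to 13 higher and 4 or 5 lower. Detection in liver ranged from 10 members when all 8 animals were required to 25 when 1 was enough, and in EWAT from 19 to 37. The replicate block called 0 members in both tissues and kept 13 higher and 5 lower. It gave 7 EWAT members an unadjusted p under 0.05 in place of 3. The share of all EWAT genes at that level was not counted for this fit, so the 7 cannot be set against a background. The block called 0 of 11265 EWAT genes, with a smallest limma adjusted p of 0.559 for a member, and 40 liver genes in place of 21. Animals with the same number correlated at r of -0.03 to 0.32 in liver and -0.04 to 0.66 in EWAT, and 4 of 8 animals in each tissue correlated best with their own number. In EWAT 3 of 4 pairs were over 0.1, not all, so the numbers were not taken as pairs. Unaveraged arrays called 129 liver genes with a chip term and 112 without, the latter added after the data were seen, and 0 members. The alternatives below turned the sign of differences, none of which was called as reported except Cx3cr1 between tissues, and the cause was not tested.

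Median scaling gave Ccl6 in liver -0.036, Ccr2 in EWAT -0.033 and Cx3cr1 between tissues -0.42. Between tissues it also turned Ccl2, Ccl4, Cxcl13, Xcl1, Ccr2, Ccr7 and Cxcr3, not called as reported, from above to below 0, and Ccl4, Ccr2 and Cxcr3 then passed as lower in EWAT (limma adjusted p = 0.0403, 0.0118 and 0.0281). The mean of probes gave Cxcl12 in EWAT 0.083, and array weights gave Ccl24 -0.10. Leaving out S2 and S4 gave Ccl19 -0.18 and Ccl27a -0.079. Leaving out C3 and S3 gave Ccl24 -0.072, Ccr2 -0.0101 and Xcl1 0.018. Leaving out those 4 gave Ccl19 -0.24, Ccl27a -0.15, Cxcl1 -0.016, Cxcl13 -0.58, Cxcl9 0.062 and Xcl1 0.15. Without 1 animal, liver values ranged from -0.0051 to 0.12 for Ccl19, -0.038 to 0.28 for Ccl5, -0.095 to 0.11 for Ccl6, -0.20 to 0.12 for Ccl9, -0.060 to 0.25 for Cxcl16 and -0.092 to 0.60 for Cxcl9. In EWAT they ranged from -0.24 to 0.43 for Ccl19, -0.45 to 0.97 for Ccl21a, -0.52 to 1.12 for Ccl21c, -0.25 to 0.33 for Ccl24, -0.039 to 0.16 for Ccl27a, -0.015 to 0.48 for Ccl6, -0.29 to 0.050 for Ccr7 and -0.073 to 0.054 for Cx3cr1. Signal near background limits the receptors, Xcl1, Ccl4 and liver Cx3cl1.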
